A study of Homo sapiens with 2 samples.

Results

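The 35 protein-coding genes described here encode the proteins of the small subunit of the cytosolic ribosome. They were chosen by name from the GENCODE 44 annotation (symbols of the form RPS followed by a number, RPSA and FAU, without the RPS6K kinases) and matched by Ensembl identifier to the 58735 genes of both count tables. Both libraries came from MCF10a-Snail-ER cells, a human mammary epithelial line derived from MCF10a that stably carries the transcription factor Snail fused to the estrogen receptor. The cells had received 100 nM tamoxifen for 1 day, which activates the fusion protein and starts an epithelial-to-mesenchymal transition. They grew in DMEM/F-12 with 5% horse serum, EGF (20 ng/ml), hydrocortisone (0.5 µg/ml), cholera toxin (100 ng/ml), insulin (10 µg/ml), L-glutamine (2 mM) and penicillin with streptomycin. One group is a single Nanopore direct RNA library, in which each polyadenylated RNA strand is read once as RNA, and the other is a single Illumina TruSeq stranded mRNA library of fragmented cDNA. By the submitters' account both were made from matched RNA samples. No untreated library was analysed here, so the question the 2 libraries address is how the same transcripts were counted by each method, not what tamoxifen did.

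Ribosomal proteins are made in near-equal numbers, because each occurs once in a finished ribosome. The small subunit binds the mRNA and reads its codons: its head and body enclose the decoding site, and the platform holds the mRNA where it leaves. Most of the human genes are short, have several introns and use a start site within a run of pyrimidines, which gives the mRNA a 5′ terminal oligopyrimidine tract through which translation follows growth signals. Several host small nucleolar RNAs in their introns, and many have left intronless copies across the genome by reverse transcription of their mRNA.

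The Nanopore library held 403235 gene counts and the Illumina library 191741714, a 475-fold difference in depth, so 1 Nanopore count is worth 2.48 CPM (counts per 1000000 gene counts). Counting error therefore lies almost wholly on the Nanopore side. Intervals below are exact 95% intervals for counting error only, since PCR duplicates cannot be told apart in counts, and with 1 library per method no spread between replicates can be given. Within a library, fewer cells that express a gene cannot be told apart from less RNA of that gene per cell. All 12 epithelial markers examined had counts in both libraries (5518 CPM in sum by Nanopore and 5280 by Illumina). Their levels were uneven: KRT5 and KRT7 were highest (1686 and 1285 CPM by Nanopore). EPCAM had 3 Nanopore counts and 4.02 CPM by Illumina, and KRT19 had 1 Nanopore count and 0.459 CPM by Illumina. Of 12 markers of blood, endothelial, stromal and fat cells, 3 had Nanopore counts (59.5 CPM in sum) and 9 had Illumina counts (82.5 CPM in sum), 8 of the 12 lying under 1 CPM by Illumina. CD68 (45.1 CPM by Illumina) and DCN (26.5 CPM) were the highest of the 12.

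A feature of the members that the naming rule did not use is the base composition at the start site, which is shown here because it is the mark of this gene family. RefSeq promoter entries (GRCh38.p14) were found for 28 of the 35 members. Within 20 bases on either side of the start, 24 of the 28 (85.7%) had an unbroken run of at least 8 C or T bases on the sense strand, against 16.5% of 15305 protein-coding genes, and the median longest run was 10.5 bases against 5. A run of at least 8 A or G bases, which is the same pattern on the other strand, occurred in 1 of the 28 (3.57%) and in 13.0% of all. The windows of 8 members follow, 5′ to 3′ on the sense strand, with the longest run of C and T in capitals and the start site at the 21st base. RPS24 and FAU had the longest runs, RPS3 and RPS12 are abundant members, RPS26 and RPS28 recur below, and RPS4X and RPS27L are among the 4 members without a run of 8.
RPS24 (chr10:78033843-78033882, plus strand): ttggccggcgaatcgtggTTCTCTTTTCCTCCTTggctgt
FAU (chr11:65122115-65122154, minus strand): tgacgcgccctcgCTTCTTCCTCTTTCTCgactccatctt
RPS3 (chr11:75399498-75399537, plus strand): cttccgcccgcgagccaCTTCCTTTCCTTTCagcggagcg
RPS12 (chr6:132814549-132814588, plus strand): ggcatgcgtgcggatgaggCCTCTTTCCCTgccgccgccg
RPS26 (chr12:56041898-56041937, plus strand): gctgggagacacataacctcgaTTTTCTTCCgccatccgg
RPS28 (chr19:8321476-8321515, plus strand): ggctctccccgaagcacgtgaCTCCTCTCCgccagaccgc
RPS4X (chrX:72277229-72277268, minus strand): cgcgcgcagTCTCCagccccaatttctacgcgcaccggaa
RPS27L (chr15:63157458-63157497, minus strand): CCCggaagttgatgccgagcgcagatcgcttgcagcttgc
The RPS27L window, from the stress-induced paralogue of RPS27, had no run longer than 3 bases, and RPS4X, whose protein has Y-linked paralogues, had none longer than 5. These are letters in a window and not mapped starts. For RPS29 the nearest RefSeq entry lay 12330 bases from the start of the canonical transcript, so its window was not used as an example. That window still counts among the 28 and, with a run of 9 bases, among the 24.

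The members were among the most heavily counted genes by both methods. They held 5.06% of Nanopore counts (20392 counts, interval 4.99 to 5.13%) and 4.47% of Illumina counts (8579394 counts). Of the 35 genes, 33 had counts in each library and passed the filter of a mean of 5 CPM. RPS4Y1 and RPS4Y2, the Y-linked paralogues of RPS4X, had 0 counts in both, which allows up to 7.44 CPM by Nanopore and 0.0157 CPM by Illumina (3 counts of the total). The autosomal and X-linked members ranged from 14 to 1253 Nanopore counts.

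A Nanopore read stands for 1 RNA strand, so its CPM needs no division by length, although it still depends on how reads were assigned between genes, copies and overlapping genes. On that scale the 33 members ran from 34.7 to 3107 CPM with a median of 1689, and 26 of them lay within 2-fold of the median. RPS2, at the mRNA entry side of the body, was highest with 1253 counts or 3107 CPM (interval 2938 to 3284). RPS12, a protein of the head, followed with 1247 counts or 3093 CPM (2923 to 3269), so the order of the 2 could not be told apart at this depth. RPS29, a zinc-binding protein of the head, had 981 counts (2433 CPM, 2283 to 2590), RPS14 of the platform 910 (2257 CPM, 2113 to 2408) and RPS3 of the entry channel 907 (2249 CPM, 2105 to 2401). The intervals of these last 3 overlap one another, and all lie below those of RPS2 and RPS12.

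At the low end stood RPS26 with 14 counts (34.7 CPM, 19.0 to 58.3), RPS9 with 68 (169 CPM, 131 to 214), RPS27L with 75 (186 CPM, 146 to 233), RPS28 with 172 (427 CPM, 365 to 495) and RPS18 with 176 (436 CPM, 374 to 506). The intervals of RPS9 and RPS27L overlap, as do those of RPS28 and RPS18, and RPS26 stands apart below all of them. Apart from RPS27L, each of these genes has either full-length copies on alternate contigs of the genome build or an identical intronless copy, as described below. Leaving out the 5 members with such copies, a choice made after the data were seen, the remaining 28 ran from 186 to 3107 CPM. Their coefficient of variation was 37.2%, against 50.9% over all 33.

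**Figure D1:**
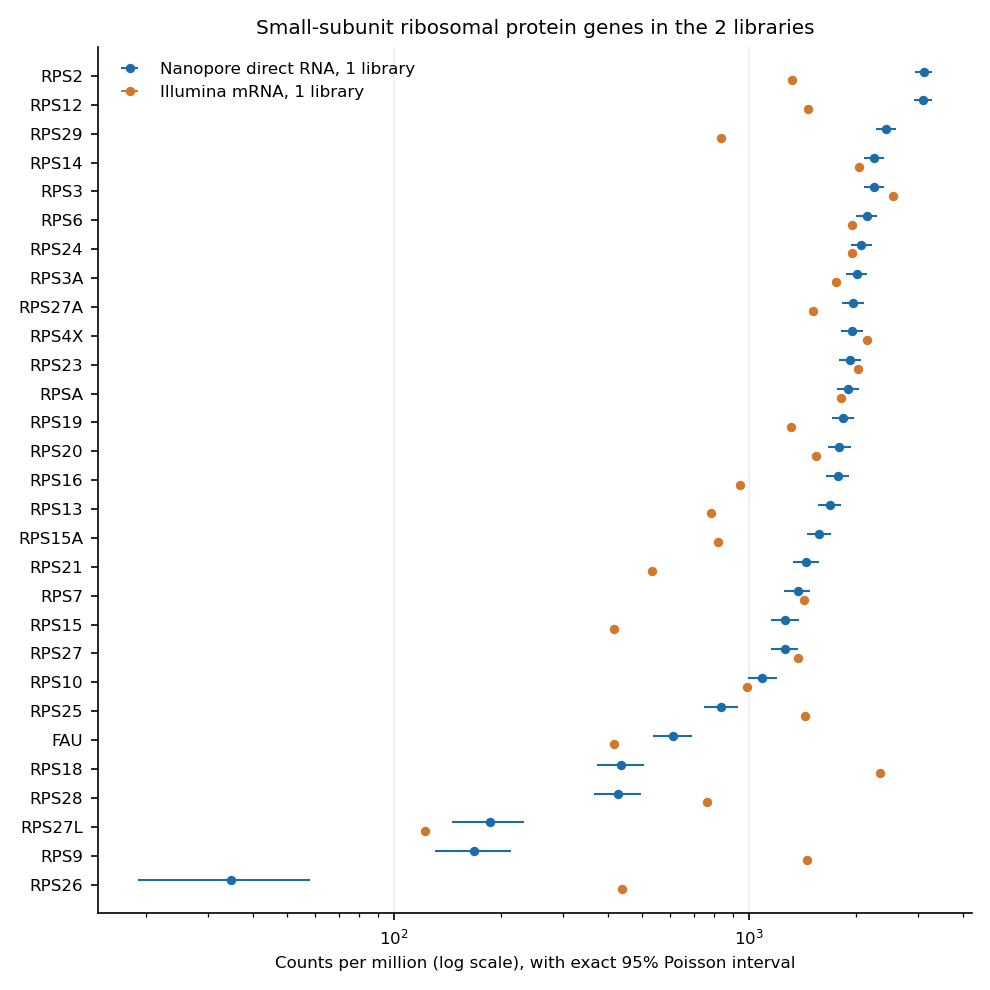
CPM of 29 of the 33 small-subunit genes with counts (horizontal axis, log scale) in the Nanopore library (blue) and the Illumina library (orange), ordered by the Nanopore level, with exact 95% Poisson intervals. The Illumina points of RPS26, RPS9 and RPS18 (439, 1462 and 2339 CPM) lie far to the right of their Nanopore points (34.7, 169 and 436 CPM), and those of RPS15, RPS21 and RPS29 lie to the left. Illumina CPM is not corrected for length, so it is compared here within a gene only.

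Illumina fragments scale with transcript length, so its levels were compared between members as TPM, which divides the counts by length before scaling to the same total. By canonical transcript length the median was 2318 TPM and the 3 highest were RPS18 (6603 TPM), RPS27 (6043) and RPS24 (5657). RPS18, of the head, was thus highest by Illumina TPM and had 436 CPM by Nanopore. The annotated canonical transcripts of this family run from 295 to 6110 bases, the longest being that of RPS27L, whose coding sequence has 255 bases and whose level on this scale was 31.0 TPM. By coding length, a scale chosen after the data were seen, the median was 2117 TPM, the range 390 (RPS27L) to 4381 (RPS27), and 28 of 33 lay within 2-fold of the median. Only 3 of the 10 highest members were shared between Nanopore CPM and either TPM scale. Across the 33 members Spearman's rho between the libraries was 0.466 for CPM against CPM, 0.080 for Nanopore CPM against canonical TPM and 0.256 against coding-length TPM. These rho values describe genes of 1 pair of libraries that differ in length and are not tested.

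Members differed between the libraries in both directions. On the CPM scale 18 of the 33 were higher by Nanopore (20.2% of all 12414 genes tested were) and 9 were higher by Illumina (27.2% of all). An exact conditional binomial test with Benjamini-Hochberg adjustment over all 12414 genes was used, with adjusted p below 0.05. With a ratio of at least 2-fold as well, 6 were higher by Nanopore (17.7% of all genes) and 4 by Illumina (21.7% of all). The median log2 ratio of Nanopore over Illumina, each as CPM + 1, was 0.15 over the members (quartiles −0.14 and 0.60) and −0.42 over all genes tested. Within 2-fold of equality lay 69.7% of the members and 50.5% of all genes. The 35 members had a median of 636 Nanopore counts, whereas a gene could pass the 5 CPM filter with few reads. Counting error spreads ratios and limits calls more at low counts, and its part in these differences was not tested. The test compares 2 libraries by their counts and has no replicate check, and the direction of the family depended on the Illumina scale. With TPM by canonical length 7 members were higher by Nanopore (31.5% of all genes on that scale) and 24 by Illumina (9.8% of all), with a median of −0.64 against 0.48 over all genes. With TPM by coding length 10 were higher by Nanopore (25.5% of all) and 18 by Illumina (10.6% of all), with a median of −0.20 against 0.36. With TPM by union exonic length 19 were higher by Nanopore (31.4% of all) and 10 by Illumina (10.6% of all), with a median of 0.50 against 0.42.

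**Figure D2:**
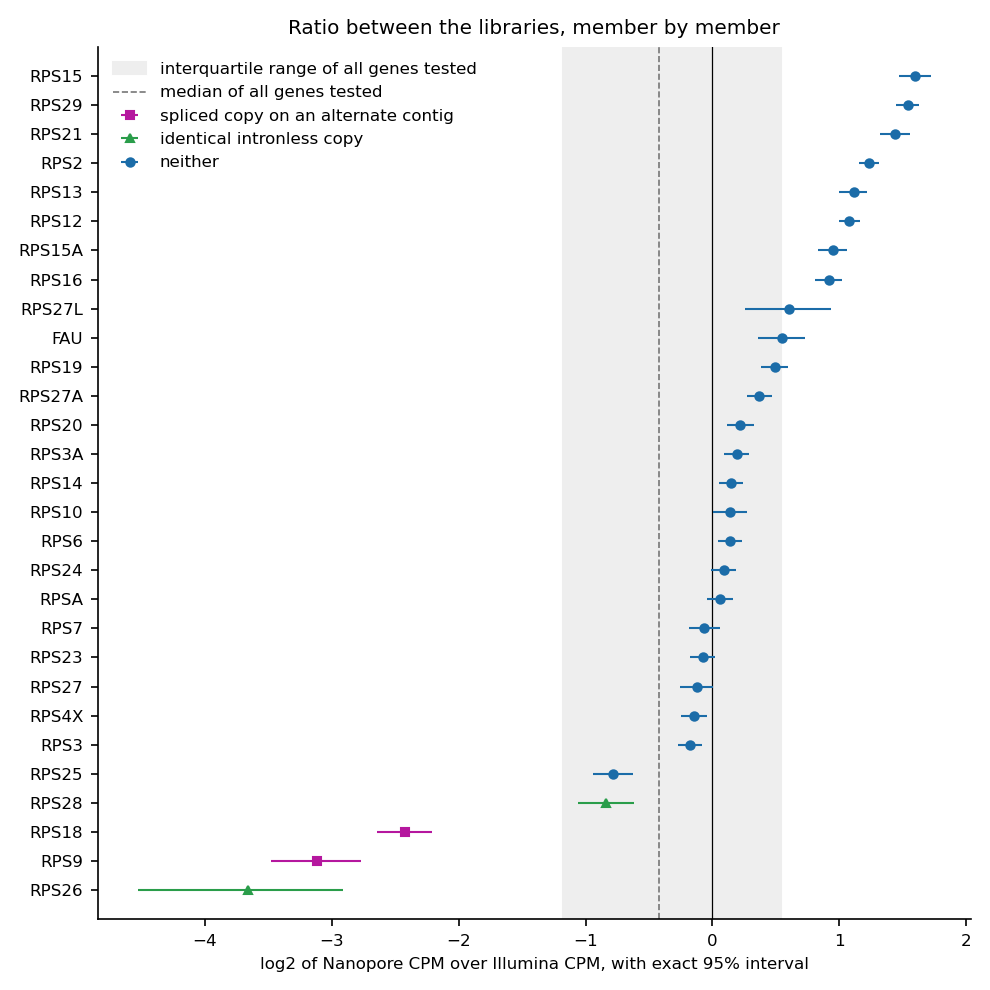
The log2 ratio of Nanopore CPM over Illumina CPM for 29 of the 33 members (points, with exact 95% intervals), with the interquartile range of all 12414 genes tested as a grey band and their median as a dashed line. Magenta squares have a spliced copy on an alternate contig and green triangles an identical intronless copy. These 4 members are the lowest of the 29, from −0.83 for RPS28 to −3.62 for RPS26 on the CPM + 1 scale, and RPS15 is the highest at 1.60.

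Among the members higher by Nanopore, RPS15, a protein of the head close to the decoding site, had the highest ratio. It had 510 Nanopore and 80113 Illumina counts, or 1265 against 418 CPM, a log2 ratio of 1.60 (adjusted p = 7.06e-97, exact binomial test). RPS29 had 981 and 160389 counts (2433 against 836 CPM, log2 ratio 1.54, adjusted p = 8.2e-175 by the same exact test). RPS21, a small protein of the body, had 584 and 102449 counts (1448 against 534 CPM) and a log2 ratio of 1.44. RPS2 had 1253 and 253107 counts (3107 against 1320 CPM) and a log2 ratio of 1.23. RPS13, also of the body, had 681 and 149768 counts (1689 against 781 CPM) and a log2 ratio of 1.11. The Nanopore level of each of these 5 was 2.16 to 3.03 times the Illumina level, with no overlap of the intervals. The ratio of RPS2 was above 0 under each of 4 Illumina scales tried (CPM, and TPM by union exonic, canonical and coding length). By canonical length those of RPS15, RPS29, RPS21 and RPS13 were −0.03, −0.85, −0.67 and −0.44, and by coding length that of RPS29 was −0.44. RPS21 was called on none of the TPM scales in this direction, with 0.058 by union exonic length and 0.018 by coding length.

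RPS12 (1247 Nanopore and 280474 Illumina counts) was the sixth member more than 2-fold higher by Nanopore on the CPM scale. RPS16 of the head had 718 and 180991 counts, RPS15A of the body 636 and 156674, and both were higher by Nanopore by less than 2-fold. Of the members of the head, RPS19, the gene first linked to Diamond-Blackfan anaemia, had 744 and 251983 counts, and RPS20 had 725 and 296190. Of those of the body and platform, RPS3A had 811 and 337834 counts, RPS14 910 and 391112, and RPS6, the phosphorylation target of the S6 kinases, 866 and 374043. All of these were called higher by Nanopore on the CPM scale, RPS6 and RPS14 with log2 ratios of only 0.14 and 0.15. Of the members in this paragraph, RPS15A alone stayed above 0 on all 4 Illumina scales. RPS20, for example, stood at −1.35 by canonical length and −0.69 by coding length.

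The 2 fusion genes encode a ribosomal protein joined to a ubiquitin-like protein that is cut off after translation. RPS27A, whose partner is ubiquitin itself, had 792 Nanopore and 291225 Illumina counts, or 1964 against 1519 CPM, a log2 ratio of 0.37 (adjusted p = 3.81e-11, exact binomial test). FAU had 246 and 80124 counts, or 610 against 418 CPM, a log2 ratio of 0.54 (adjusted p = 1.72e-07, exact binomial test). Both were higher by Nanopore on the CPM scale and below 0 by canonical length (−0.60 and −1.06) and by coding length (−0.15 and −0.20).

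The 6 members RPS7, RPS10, RPS23, RPS24, RPS27 and RPSA were not called (adjusted p from 0.0875 to 0.422, exact binomial test), with 440 to 836 Nanopore and 189735 to 390269 Illumina counts. RPS23 sits at the decoding site, RPS10 in the head, and RPSA is also known as a laminin receptor. RPSA had 765 and 349086 counts, RPS24 had 836 and 373735, RPS23 had 778 and 390269, RPS7 had 553 and 274959, and RPS10 had 440 and 189735. The lack of a call holds for the CPM scale only: by canonical and by coding length all 6 were called, 1 higher by Nanopore and 5 by Illumina, and by union exonic length 5 were, 4 of them higher by Nanopore.

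The paralogue pair RPS27 and RPS27L both have a coding length of 255 bases, but their canonical transcripts have 352 and 6110 bases. Illumina fragments scale with transcript length, so the Illumina shares of the pair below are shares of counts, not of molecules. By canonical length the Illumina levels were 6043 TPM for RPS27 and 31.0 TPM for RPS27L. RPS27 had 508 Nanopore and 263157 Illumina counts (1260 against 1372 CPM), a log2 ratio of −0.12 that was not called (adjusted p = 0.101, exact binomial test). RPS27L, which is induced by p53, had 75 and 23448 counts (186 against 122 CPM), a log2 ratio of 0.60 (adjusted p = 0.00257, exact binomial test). RPS27L made up 12.9% of the pair's Nanopore counts (interval 10.3 to 15.9%) and 8.18% of its Illumina counts (8.08 to 8.28%). With the counts at intronless copies of RPS27 added, a choice made after the data were seen, the share of RPS27L was 8.26% by Nanopore (6.55 to 10.2%) and 6.33% by Illumina. Both ratios depended on the Illumina scale: by coding length they were −1.53 for RPS27 and −0.80 for RPS27L, and by canonical length −2.26 and 2.55. RPS4X, which escapes X inactivation and is the expressed copy of its paralogue group here, had 787 and 413357 counts (1952 against 2156 CPM), a log2 ratio of −0.14 (adjusted p = 0.0128, exact binomial test).

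The members lowest by Nanopore relative to Illumina included RPS9 and RPS18, whose spliced genes occur more than once in hg38. RPS9, a protein of the body that acts in decoding fidelity (chr19:54200809-54249003), had 68 Nanopore and 280351 Illumina counts, or 169 against 1462 CPM, a log2 ratio of −3.11. RPS18, which lies in the head at the contact with the large subunit (chr6:33272075-33276511), had 176 and 448470 counts, or 436 against 2339 CPM, a log2 ratio of −2.42. The adjusted p-values were 3.57e-162 and 2.66e-204 (exact binomial test). Both remained below 0 under each of the 4 Illumina scales.

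Alignment of the coding sequences to hg38 with its alternate contigs, which are second versions of variable regions, found full-length spliced copies of 3 members, RPS9 and RPS18 among them. RPS9 had 9 such copies and RPS18 had 4, at 99.83 to 100% identity. The primary chromosome thus holds 10% of the spliced loci of RPS9 and 20% of those of RPS18. The Nanopore CPM was 0.115 times the Illumina CPM for RPS9 (interval 0.0896 to 0.146) and 0.187 times for RPS18 (0.160 to 0.216). Whether the authors aligned to the alternate contigs, and how reads with several equal placements were counted, is not given in the sources used here, and the part of these copies in the ratios was not tested.

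RPS26 and RPS28 both sit where the mRNA leaves the small subunit, and both have an intronless copy with an identical coding sequence. RPS26 (chr12:56041351-56044697) had 14 Nanopore and 84219 Illumina counts, or 34.7 against 439 CPM, a log2 ratio of −3.62 (adjusted p = 3.79e-55, exact binomial test). Its copy, ENSG00000196656 (chr4:113214046-113214393, within the body of ANK2), had 498 Nanopore and 3401 Illumina counts. RPS28 (chr19:8321158-8323340) had 172 and 146048 counts, or 427 against 762 CPM, a log2 ratio of −0.83 (adjusted p = 6.89e-16, exact binomial test). Its copy RPS28P7 (chr11:82689559-82689768) had 416 and 25212 counts. In both families the Nanopore library counted the copy more often than the gene, and the Illumina library did the reverse. The coding sequences are printed because no base in them tells gene from copy. They were read from hg38, the capitals mark 2 bases on either side of each place where an intron interrupts the gene, and the copy runs on without interruption.
RPS26, coding bases 1 to 300 of 348, with 2 of 3 intron places: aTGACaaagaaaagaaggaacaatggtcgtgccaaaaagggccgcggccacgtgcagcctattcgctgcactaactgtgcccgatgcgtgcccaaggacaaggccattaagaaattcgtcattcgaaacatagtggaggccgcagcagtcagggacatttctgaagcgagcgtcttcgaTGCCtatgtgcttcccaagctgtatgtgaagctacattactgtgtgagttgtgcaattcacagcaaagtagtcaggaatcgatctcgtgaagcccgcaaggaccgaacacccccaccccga
RPS28, coding bases 1 to 210 of 210, with 2 of 2 intron places: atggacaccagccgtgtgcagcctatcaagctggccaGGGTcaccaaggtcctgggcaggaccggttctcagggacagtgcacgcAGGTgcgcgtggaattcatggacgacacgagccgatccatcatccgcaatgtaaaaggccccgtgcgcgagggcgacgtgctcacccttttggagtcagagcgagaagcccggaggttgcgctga

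RPS27 is the third member with a heavily counted copy. RPS27P3 (chr12:3211663-3211917, within the body of TSPAN9) differs from the RPS27 coding sequence at 1 base of 255, the substitution G156A counted from the first base of the start codon, and had 274 Nanopore and 82328 Illumina counts. The 61 bases around the difference (coding bases 126 to 186) are shown for both, with the differing base in capitals.
RPS27: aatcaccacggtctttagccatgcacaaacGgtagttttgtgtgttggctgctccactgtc
RPS27P3: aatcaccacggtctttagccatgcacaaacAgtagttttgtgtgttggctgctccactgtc

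Across the family, 28 members had 114 intronless copies on the primary chromosomes (at least 80% of the coding sequence aligned with at most 5% divergence), all of them annotated genes of the tables. A further 5 lay on alternate contigs, 3 of RPS26 and 2 of RPS7, and have no entry in the tables. The 114 copies held 2337 Nanopore and 358724 Illumina counts, which is 10.3% (interval 9.89 to 10.7%) and 4.01% of the counts of members and copies together. For RPS26 the share at copies was 97.4% by Nanopore (95.7 to 98.6%) and 5.13% by Illumina. The shares were 70.9% (67.1 to 74.5%) and 15.4% for RPS28, 39.0% (35.7 to 42.4%) and 24.2% for RPS27, 28.7% (23.2 to 34.8%) and 2.12% for RPS18, and 21.6% (17.8 to 25.8%) and 3.86% for RPS25. Copies held over 10% of the Nanopore counts for 8 members and over 10% of the Illumina counts for 4. The share was larger by Illumina for RPS27A (9.95%, against 6.38% with an interval of 4.83 to 8.25%). Adding the copies to the gene, a choice made after the data were seen, turned the log2 ratio of RPS26 to 1.52 and that of RPS28 to 0.70. It left RPS18 at −1.96 and RPS25 at −0.49. Which of the reads counted at a copy came from its parent gene was not tested.

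**Figure D3:**
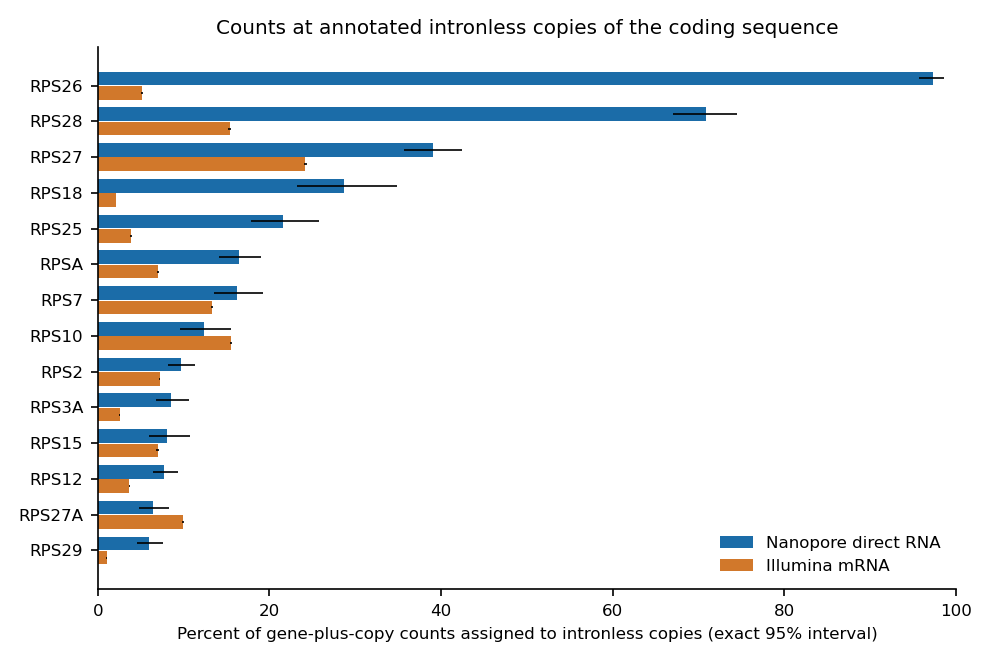
Percent of the counts of a member and its intronless copies that were assigned to the copies (horizontal axis), by Nanopore (blue) and Illumina (orange), with exact 95% intervals, for 14 members at 5% or more in either library. RPS26 and RPS28 stand out with 97.4% and 70.9% by Nanopore against 5.13% and 15.4% by Illumina.

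RPS25 and RPS3 were also called higher by Illumina and have neither kind of full copy. RPS25, a protein of the head used by viral internal ribosome entry sites, had 337 Nanopore and 275301 Illumina counts (836 against 1436 CPM), and its closest intronless copy, of 98.4% identity, had 92 and 10080. RPS3 had 907 and 487520 (2249 against 2543 CPM), a log2 ratio of −0.18. RPS25 stayed below 0 on all 4 Illumina scales, whereas RPS3 stood at 0.94 by union exonic length and 0.24 by canonical length. The calls of RPS3 and RPS4X were also lost under TMM scaling (−0.088 and −0.055) and median-ratio scaling (−0.049 and −0.016). With RPS4X they are among the 4 such members of the 28 without a spliced alternate or identical intronless copy. Of those 28, 18 were higher by Nanopore (20.2% of all genes tested), none was 2-fold higher by Illumina (21.7% of all), and the median log2 ratio was 0.22. The 4 higher by Illumina stand beside 27.2% of all genes.

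**Figure D4:**
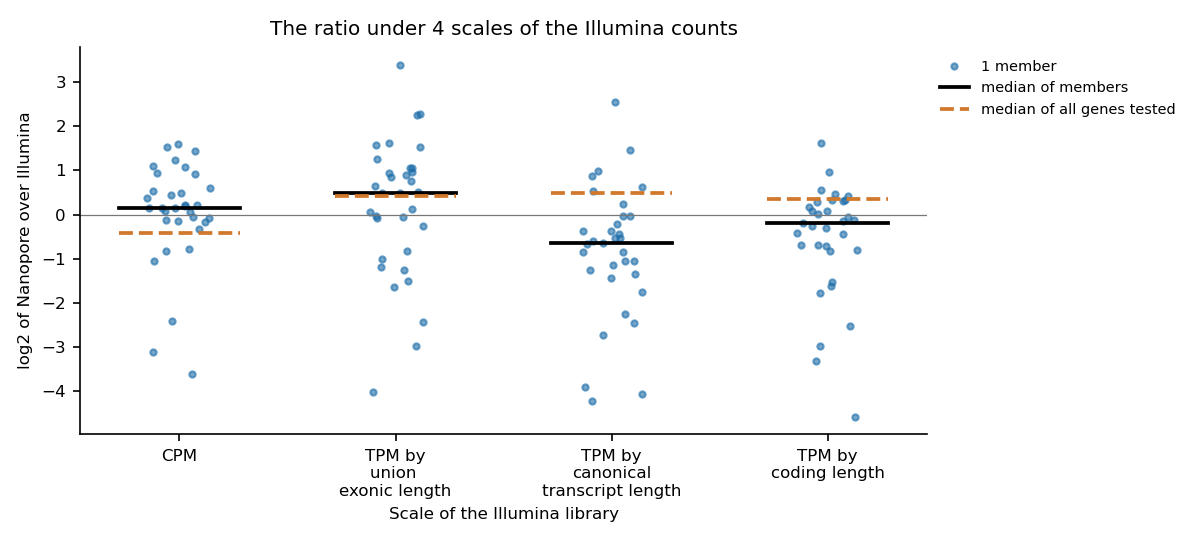
The log2 ratio of Nanopore over Illumina for the 33 members (points, spread sideways for legibility only) with the Illumina library as CPM or as TPM by 3 lengths, the median of the members (black) and that of all genes tested (dashed orange). The black line lies above the orange one for CPM (0.15 against −0.42) and for TPM by union exonic length (0.50 against 0.42), and below it for TPM by canonical length (−0.64 against 0.48) and coding length (−0.20 against 0.36). Of the members, 8 lie below 0 on all 4 scales and 2 lie above 0.

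The 8 members below 0 on all 4 scales included RPS9, RPS18, RPS25, RPS26, RPS27 and RPS28, and the 2 above 0 were RPS2 and RPS15A. The other 23 changed sign with the scale. Spearman's rho between the log2 ratio on the CPM scale and coding length, from 171 bases for RPS29 to 888 for RPSA, was −0.12 over 33 members. Over the 28 members without a spliced alternate or identical intronless copy, a set chosen after the data were seen, it was −0.29. With canonical length, rho was −0.15 over the 33 and −0.22 over the 28. These rho values are descriptions without a test.

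Many members share their locus with another gene, and several of these partners had a Nanopore count almost equal to that of the member. Of the 35 members, 19 share exonic bases with another gene of the annotation. In 12 pairs of this kind the partner had at least 20 Nanopore counts, and in 6 of the 12 its count was within 10% of the member's. ATG10, an autophagy gene on the opposite strand to RPS23 with 374 shared exonic bases, had 781 Nanopore counts beside 778 for RPS23. By Illumina it had 42081 counts, or 10.8% of the RPS23 count. SH3D19, opposite RPS3A with 262 shared bases, had 822 beside 811 by Nanopore and 11.1% of the member's count by Illumina. SYVN1, an E3 ubiquitin ligase on the same strand as FAU with 130 shared bases, had 239 beside 246 by Nanopore and 18.4% by Illumina.

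PIN4, opposite RPS4X, had 804 Nanopore counts beside 787 and 1.83% of the member's count by Illumina, although the annotation used here gives the 2 genes no shared exonic base. CENATAC, opposite RPS25 with 47 shared bases, had 239 Nanopore counts beside 337, and by Illumina 2360, or 0.857% of the RPS25 count. ENSG00000260342 had 704 Nanopore counts beside 636 for RPS15A on the same strand. The readthrough gene RPS10-NUDT3 had 450 beside 440 for RPS10, and there the Illumina share was as high, at 94.3%. At the other extreme LRR1, opposite RPS29 with 404 shared bases, had 21 Nanopore counts beside 981. The partners ENSG00000167774 and NDUFA7 of RPS28 had 40 and 26 beside 172.

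**Figure D5:**
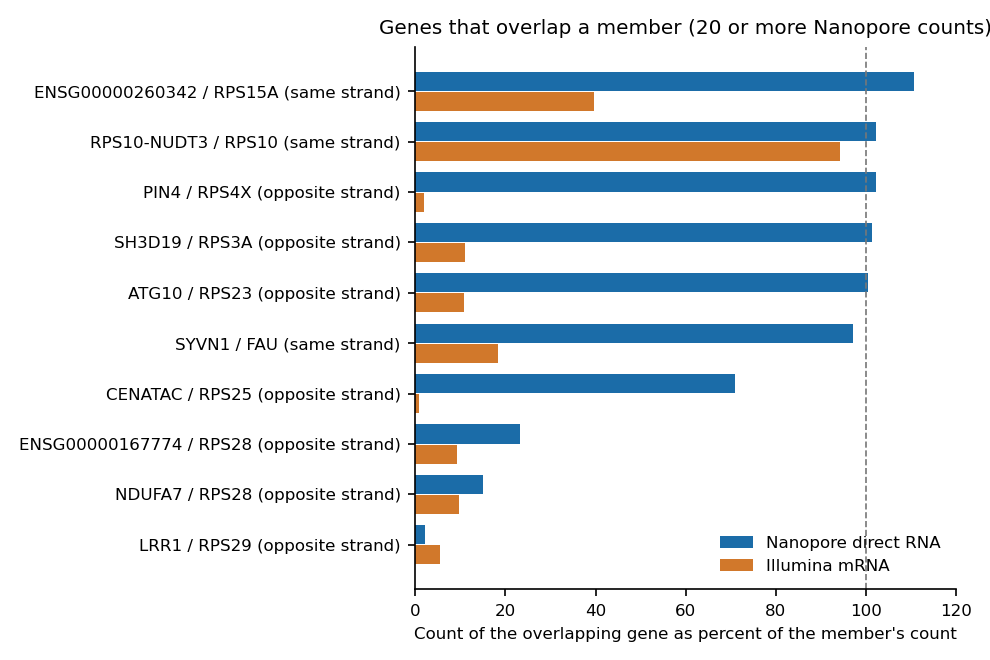
Count of each gene that overlaps a member, as percent of the member's own count (horizontal axis), by Nanopore (blue) and Illumina (orange), for 10 partners with at least 20 Nanopore counts. Of these, 6 lie between 97.2% and 111% by Nanopore, and of these 6 only RPS10-NUDT3 comes near that by Illumina (94.3%).

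The near-equal counts occurred on the same and on the opposite strand. Reads that overlap several genes can be counted for each of them, for 1 or for none; which rule and which strand setting the authors used is not given in the sources used here, and its part in these values was not tested. The 20 small nucleolar RNA genes within the bodies of 9 members, 13 of which share exonic bases with at least 1 annotated transcript of the member, had 26 Nanopore counts in all and at most 6 each, with 1039 Illumina counts in all. The 9 host genes included RPS2, RPS12 and RPS13, and 6 of the 9 were higher by Nanopore (20.2% of all genes tested), 2 by Illumina (27.2%) and 1 was not called.

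By place in the subunit, the 14 head proteins had 8 genes higher by Nanopore, 5 by Illumina and 1 not called, with a median log2 ratio of 0.22. Of the 18 tested genes for body and platform, 9 were higher by Nanopore, 4 by Illumina and 5 not called, with a median of 0.11. Of 10 members linked to Diamond-Blackfan anaemia, an inherited failure of red cell production, 3 were higher by Nanopore (RPS15A, RPS19 and RPS29), 3 by Illumina (RPS26 and RPS28 among them) and 4 not called, with a median of 0.012. All 3 lists stand against the same shares of 20.2% and 27.2% and the median of −0.42 over all genes tested, and all 3 hold members with the copies described above.

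The proteins of the large subunit, found by the same kind of name rule, were 54 genes of which 51 were tested. Of these, 36 were higher by Nanopore (20.2% of all genes tested were), 9 by Illumina (27.2% of all) and 6 were not called. The median log2 ratio was 0.34, against −0.42 over all genes tested. The large-subunit genes held 7.64% of Nanopore and 6.20% of Illumina counts. Their calls and median are given on the CPM scale only. The difference between the 2 subunits was not tested.

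The assembly factors of the small subunit and the S6 kinases mostly had much lower counts than the members. None of the 28 assembly factors was higher by Nanopore (20.2% of all genes were), and 15 were higher by Illumina (27.2% of all). By at least 2-fold, 13 were higher by Illumina (21.7% of all), and the median log2 ratio of the 28 was −0.97. These values, and those of the kinases below, are on the CPM scale only, without correction for length. The median over all genes tested was −0.42 on that scale and 0.48 with Illumina TPM by canonical length. FBL, the methyltransferase of box C/D nucleolar RNA particles, had 44 counts by Nanopore and 108108 by Illumina, for a log2 ratio of −2.36. The GTPase gene BMS1 had 10 and 20762 (−2.08), UTP6 had 8 and 15235 (−1.95), the helicase gene DHX37 had 4 and 7560 (−1.89), and the kinase gene RIOK1 had 5 and 8284 (−1.72). With a median of 11.5 Nanopore counts per gene, a 2-fold difference was often within counting error for this list. RACK1, a scaffold protein that binds the head and is counted at ribosomal protein levels, had 982 and 497188 counts, or 2435 against 2593 CPM, and was not called (adjusted p = 0.0938, exact binomial test). Of the kinases named for phosphorylating RPS6, RPS6KA1 had 7 Nanopore and 15872 Illumina counts and RPS6KA3 had 9 and 10768, both at least 2-fold higher by Illumina. RPS6KA2 had 0 and 3265 counts, so its Illumina level of 17.0 CPM stands against a Nanopore limit of 7.44 CPM. RPS6KB1 (9 and 5981) and RPS6KB2 (19 and 10346) were not called.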

How the data were processed

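The authors deposited 2 tables of raw gene counts, 1 per library, with 58735 Ensembl genes each. Per the submitters' processing notes the tools were minimap2 2.11-r797, HISAT2 2.1.0 and featureCounts on hg38; their options and the annotation are not given in the sources used here. The members, lists and tests were chosen with earlier results of these data known. Members are named with their counts, except 4 that count in all totals but are not reported here by name; fuller values went to the 5 highest and 5 lowest ratios, the 5 highest levels, paralogues and fusions. Counts were divided by the library total (CPM). Ratios are log2 with 1 CPM added. Genes averaging 5 CPM or more over both libraries were tested by an exact two-sided conditional binomial test (scipy 1.17.1, Python 3.11.15). The test itself was tested on simulated Poisson counts based on the Illumina levels. That simulation covers counting error only and holds no difference in length, copies or overlapping genes between the methods. TMM factors came from edgeR 4.0.16 (R 4.3.3). Alternatives changed the pseudocount, filter, scale, fold and set of members. Copies were found by aligning coding sequences of GENCODE 44 to hg38 with minimap2 2.31, in spliced mode. With 1 library per method, p-values measure counting error only.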

Additional observations from a re-analysis of the deposited data

How the results depend on the processing

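The counts of members higher by each method and the median ratio were the same within 1.5 times, or within 0.1 on the log2 scale, under pseudocounts of 0.1 and 5 CPM, no filter, a mean of at least 20 CPM and TMM scaling. Median-ratio scaling moved the median log2 ratio to 0.27, all ratios being shifted by 0.13, and RPS27 to 0.0039. With Illumina TPM by union exonic length, 7 members were at least 2-fold higher by Illumina, the median was 0.50, FAU stood at −0.26 and RPS3 at 0.94. By canonical transcript length 7 members were higher by Nanopore (2 of them 2-fold) and 24 by Illumina (13 of them 2-fold), the median was −0.64, and the log2 ratios were −0.44 for RPS13, −0.026 for RPS15, −0.67 for RPS21, −0.60 for RPS27A, −0.85 for RPS29, −1.06 for FAU and 0.24 for RPS3. By coding length, a scale added after the data were seen, the counts were 10 (1 of them 2-fold) and 18 (7 of them 2-fold), the median −0.20, RPS27A −0.15, FAU −0.20, RPS29 −0.44, RPS27L −0.80 and RPS4X 0.088. Adding intronless copies, also chosen later, gave 1.52 for RPS26, 0.70 for RPS28 and 0.19 for RPS27. RPS27L then made up 8.26% of its pair's Nanopore counts and 6.33% of its Illumina counts, without correction for length. By the way these scales are built, a longer annotated transcript lowers the Illumina level. Over all genes tested, 31.5% were higher by Nanopore and 9.8% by Illumina by canonical length, and 25.5% and 10.6% by coding length. The shares over all genes at 2-fold on the TPM scales were not computed.

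Fewer members by construction gave smaller counts. Among the 8 tested members whose body overlaps no other gene, 4 were higher by Nanopore (2 of them 2-fold) and 1 by Illumina (1 of them 2-fold). Without the 3 members with a spliced alternate copy, 1 member was 2-fold higher by Illumina, and without the 2 with an identical intronless copy as well, a choice made later, 4 were higher by Illumina and 0 by 2-fold. Beside the counts of these sets, 20.2% of all genes tested were higher by Nanopore (17.7% by 2-fold) and 27.2% by Illumina (21.7% by 2-fold). At 4-fold, 0 members were higher by Nanopore and 3 by Illumina, and the share over all genes was not computed. The members' share of counts was 5.63% by Nanopore and 4.75% by Illumina without mitochondrially encoded genes in the total, 6.10% and 4.68% with protein-coding genes only, 5.39% and 4.63% with pseudogenes named after the members, and 5.64% and 4.66% with intronless copies. The Illumina share was 9.34% as TPM by canonical length, above the Nanopore share. By coding length it was 7.88%, a total that leaves out genes without a coding sequence. The nearest Nanopore share to set beside that is the 6.10% with protein-coding genes only. The median Illumina level was 1087 TPM by union exonic length and 2117 by coding length, against 2318.

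No paired analysis was possible because each method has 1 library, and no library was left out in turn for the same reason. The Nanopore depth limits the rarest values: RPS26 rests on 14 reads and several assembly factors on fewer than 10.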
